A study of Mus musculus with 12 samples.

Results

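The genes described here carry the insulin and insulin-like growth factor (IGF) signal from its ligands through PI3-kinase and AKT to the mTOR complexes, with the AMP-activated kinase AMPK as a counterpart. They were taken by gene symbol from a list of 37, of which 36 had a probe set on the array, out of 19505 genes named on it. Rps6kb1 had none and is not described. All 36 passed the filter on dim genes, and each was measured by 1 probe set.

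Insulin and IGFs bind receptor tyrosine kinases, which phosphorylate the IRS substrate proteins and so recruit PI3-kinase. The lipid that PI3-kinase makes brings AKT to the membrane, where PDK1 and mTOR complex 2 activate it, and AKT then inhibits glycogen synthase kinase 3, releases glucose transporters, relieves the TSC brake on mTOR complex 1 and keeps FoxO transcription factors out of the nucleus. In cardiac muscle this route governs glucose uptake, protein synthesis and cell size, and most of its control lies in phosphorylation, which arrays of RNA do not read.

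RNA came from the myocardium of 12 mice, 4 in each of 3 groups, and the labels mark the tissue with 6 months. Negative control mice (NC) received vehicle into the peritoneum for 5 days. Diabetic mice (DM) received streptozotocin, a toxin of the insulin-producing beta cells, in the same way and were kept in the study if fasting glucose reached 16.7 mM after 2 weeks. Treated mice (AngIV) were diabetic in the same manner and were infused with angiotensin IV, a fragment of angiotensin II, at 2.88 mg/kg/day between week 8 and week 24, which the labels also give as 4 months. Strain and sex are not given in the sources used here. There was no group of non-diabetic mice given angiotensin IV, so AngIV against DM concerns the peptide in diabetic hearts only. An infusion is recorded here for the AngIV mice only, so the peptide cannot be told apart from the infusion itself. AngIV against NC joins diabetes, the peptide and the infusion. A characteristics tag for disease state contradicts the titles and source names: it marks the 4 NC arrays as diabetic and the 4 AngIV arrays as negative controls. It was not used, so the groups, and with them every direction given here in any comparison, rest on the titles and source names. Streptozotocin lowers insulin itself, so the model is one of lost hormone rather than of resistance to it. The question put to the data here is whether the RNA of this route differed between control and diabetic hearts and whether angiotensin IV moved it.

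Values are log2 signals, in which a step of 1 is a doubling of signal, and in each sentence that lists arrays they run from replicate 1 to replicate 4. Background was read from the negative controls, whose 95th percentile averaged 5.48 on the NC, 5.53 on the DM and 5.53 on the AngIV arrays. A gene with a group mean under it is given no fold in comparisons with that group. Of the 36 genes 29 lay above it in every group, while Igf1r, Igfbp3, Irs1, Pik3cb, Pik3r2, Tbc1d1 and Rptor lay below it in at least 1 group. As a check of the labelled tissue, 8 cardiomyocyte markers such as Myh6 and Tnnt2 all lay above it, with a mean of 11.2 to 11.4 on every array. Atrial markers were uneven: their mean ran from 5.59 to 7.82 in NC, from 5.23 to 7.55 in DM and from 5.37 to 5.78 in AngIV. Marker means of other cells were 7.35 to 7.78, 7.22 to 7.47 and 6.99 to 7.36 for fibroblasts and 5.59 to 5.85, 5.55 to 6.60 and 5.61 to 6.31 for macrophages, in NC, DM and AngIV in that order. All markers of adipocytes and mesothelium with a probe set, 6 and 5, lay below the negative controls in every group. In whole tissue, fewer cells of a type and less RNA per cell cannot be told apart.

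**Figure D1:**
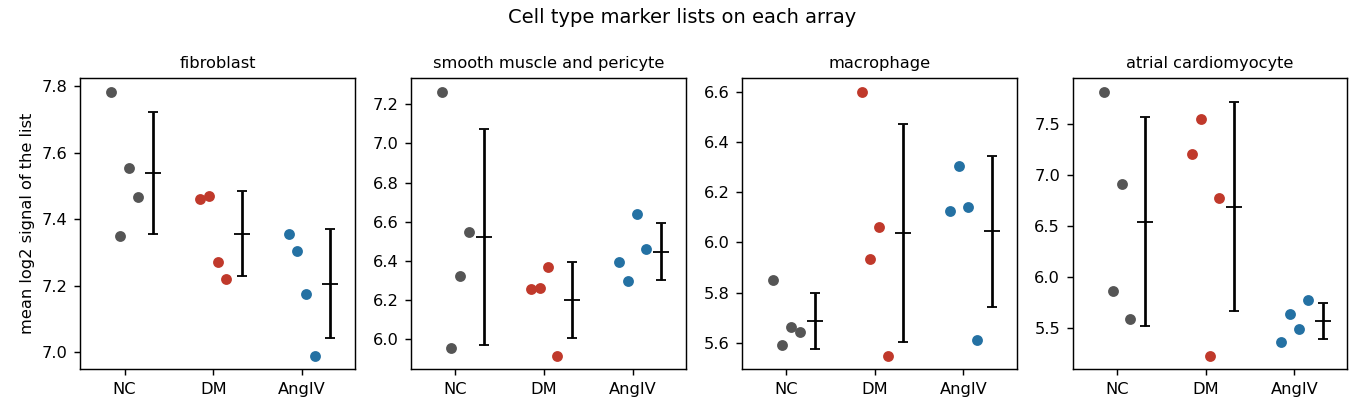
Mean log2 signal of the fibroblast, smooth muscle and pericyte, macrophage and atrial cardiomyocyte marker lists (vertical axis, a scale for each panel) by group (NC, DM and AngIV); points are arrays and bars the mean ± SD of 4 arrays. The atrial means reach 7.82 in NC and 7.55 in DM but no higher than 5.78 in AngIV, and the fibroblast means average 7.54, 7.36 and 7.21 in NC, DM and AngIV.

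Diabetic hearts that received angiotensin IV carried more Pik3r1 RNA than control hearts, 1.83-fold, and Pik3r1 was the member past the threshold of an adjusted p under 0.05 in that comparison (limma, Benjamini-Hochberg over 13653 genes). Diabetes without the peptide left all 36 genes short of the threshold, and so did the peptide within diabetes. Beside Pik3r1, the AngIV arrays lay wholly above the NC arrays for Insr, Igf1r and Akt1. They lay wholly below them for Grb14, the adaptor that blocks the insulin receptor. The limma adjusted p-values of Insr, Igf1r, Akt1 and Grb14 lay between 0.0505 and 0.115. Arrays thus did not overlap for 5 of the 36 genes, beside 12.8% of all genes, and Igf1r lay below the negative controls in all groups. The DM arrays overlapped the NC arrays for all 5 of these genes.

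In DM against NC limma called 0 of the 36 genes, beside 0.022% of all genes tested. At an unadjusted p under 0.05 there were 6 (16.7%, beside 10.7% of all genes), with Insr, Igf1r, Pik3r1 and Prkag2 higher and Igfbp5 and Pik3cb lower in DM. The arrays of the groups did not overlap for 1 gene, Pik3cb, beside 5.3% of all genes. The median log2 change was 0.02 over the 36 genes and -0.00 over all genes, and 20 of the 36 values were positive. The median size of the change regardless of sign was 0.11 in both sets.

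In AngIV against DM limma again called 0 of the 36, beside 0% of all genes. At an unadjusted p under 0.05 there were 3 (8.33%, beside 8.78% of all genes): Pik3r1 and Akt1 higher and Prkag2 lower in AngIV. Groups did not overlap for Mtor alone among the 36, beside 5.76% of all genes. The median log2 change was 0.06 over the 36 genes and 0.01 over all genes, and 23 of the 36 values were positive, or 20 after a further quantile normalization, where their median was 0.01.

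In AngIV against NC limma called 1 of the 36, beside 2.15% of all genes. At an unadjusted p under 0.05 there were 8 (22.2%, beside 18.6% of all genes), with Insr, Igf1r, Pik3r1, Akt1 and Rictor higher and Igfbp5, Igfbp7 and Grb14 lower in AngIV. Arrays of the groups did not overlap for 5 genes, beside 12.8% of all genes. Against NC with both diabetic groups weighted equally, limma called 1 of the 36, Pik3r1, beside 1.32% of all genes, and 9 had an unadjusted p under 0.05 (25%, beside 16.4% of all genes). These counts lie near the share of all genes in each comparison, the comparisons share their NC or DM arrays, and none of them is a result about the route as a whole.

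**Figure D2:**
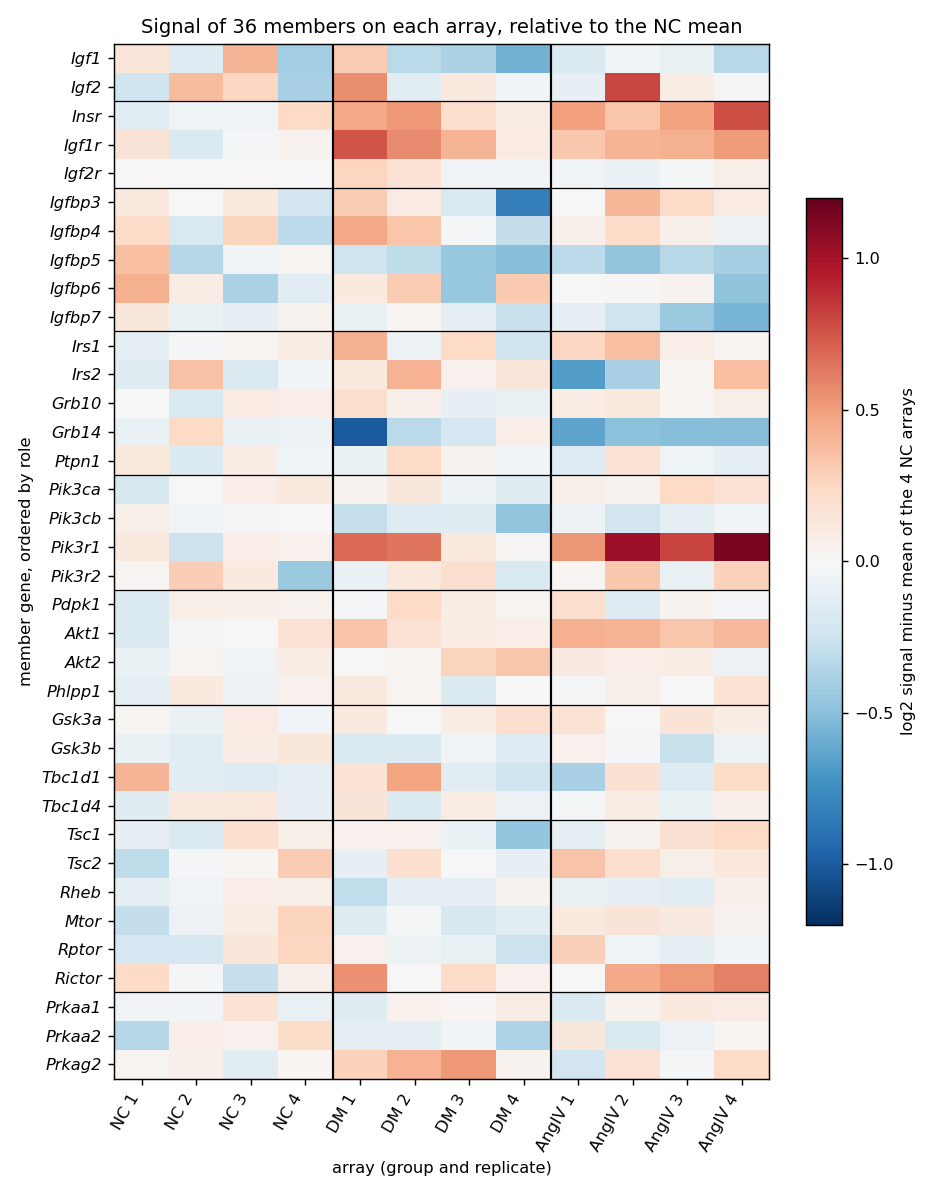
Log2 signal of each of the 36 genes (rows, ordered by role) on each of the 12 arrays (columns), relative to the NC mean of that gene; colour gives the difference. Pik3r1, Insr, Igf1r and Akt1 are higher and Grb14 is lower on all 4 AngIV arrays, and the DM columns are mixed.

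The map of arrays by gene shows the uneven DM group. For the 8 genes with an unadjusted p under 0.05 in AngIV against NC, DM replicate 4 lay inside the NC range for 6, whereas DM replicates 1, 2 and 3 lay inside it for 2, 3 and 3. Of the 2542 genes at that level in all, 57.0% lay inside the NC range on DM replicate 4, and 28.1%, 34.4% and 52.7% on DM replicates 1, 2 and 3. The macrophage marker mean was 5.55 on DM replicate 4, below every NC array, and 6.60, 5.94 and 6.06 on DM replicates 1, 2 and 3, above every NC array; its part in these counts was not tested. Inside the AngIV range the same 4 arrays lay for 4, 3, 4 and 2 of the 8 genes. Spread within groups was modest, with a within-group SD between 0.0778 for Gsk3a and 0.368 for Igf2 and a median of 0.18 over the 36 genes.

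**Figure D3:**
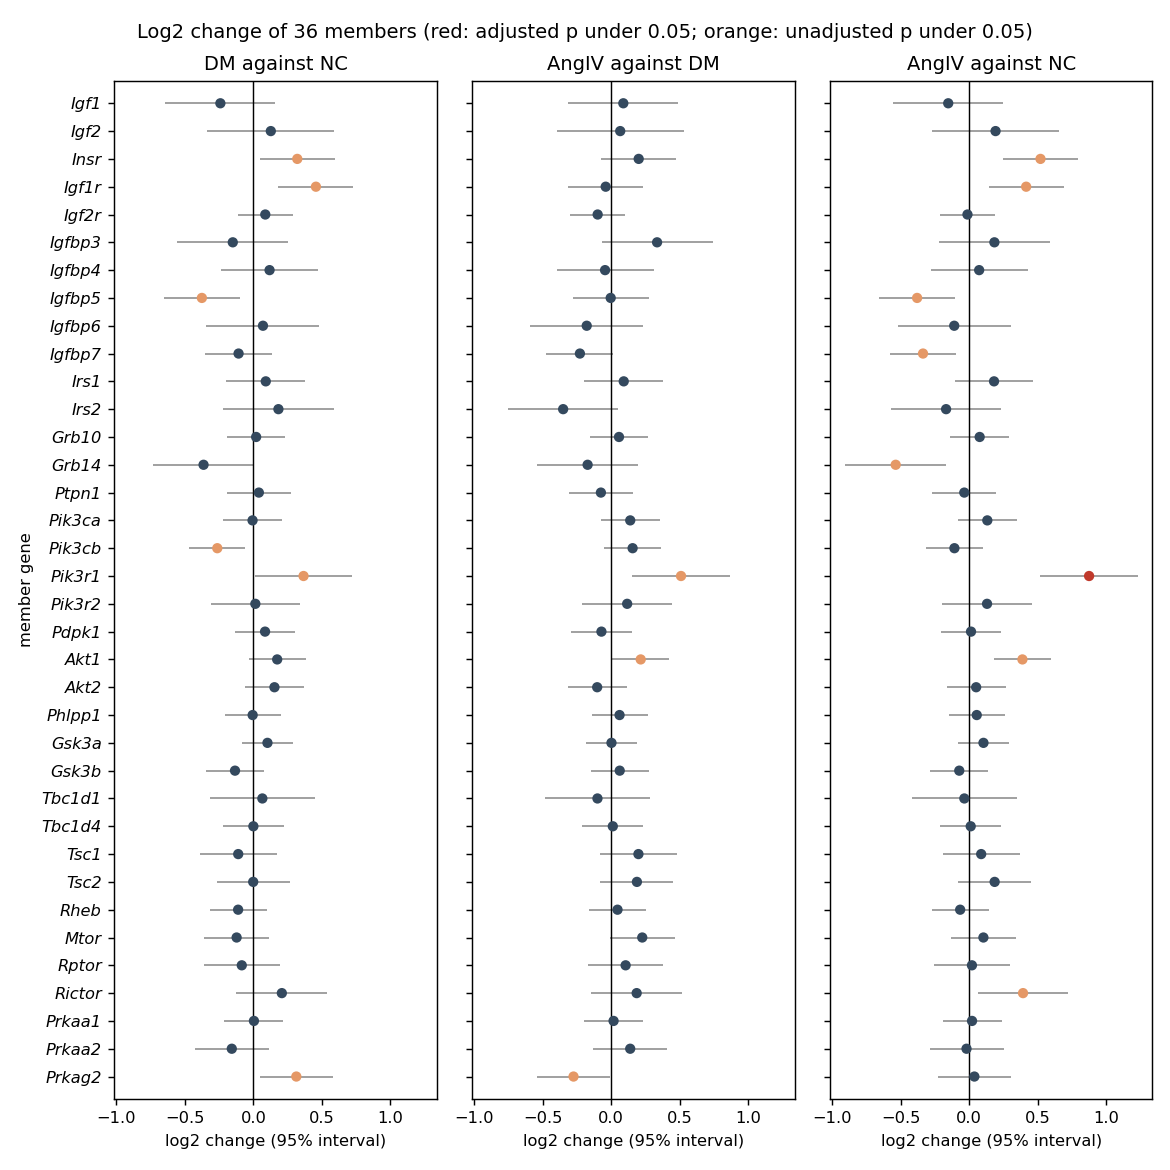
Log2 change of each of the 36 genes (horizontal axis) with its 95% interval from limma, by comparison; red marks an adjusted p under 0.05 and orange an unadjusted p under 0.05. Pik3r1 at 0.87 in AngIV against NC stands farthest from 0, and most intervals include 0.

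Of the ligands, Igf1 encodes the growth factor made by heart fibroblasts and macrophages as well as by liver. Igf1 read 7.34, 7.03, 7.60 and 6.78 in NC, 7.49, 6.86, 6.81 and 6.62 in DM and 7.03, 7.15, 7.10 and 6.86 in AngIV. All 3 groups overlapped, and the wide NC and DM ranges enclosed the AngIV arrays. Its log2 change was -0.24 in DM against NC and 0.09 in AngIV against DM (limma adjusted p = 0.698 and 0.923). Igf2, the fetal growth factor, had group means of 6.32, 6.45 and 6.51 with the largest within-group spread of the 36 genes.

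Insulin acts through the receptor encoded by Insr and IGF-1 through that encoded by Igf1r. Insr read 8.77, 8.85, 8.85 and 9.15 in NC, 9.37, 9.43, 9.11 and 8.99 in DM and 9.40, 9.23, 9.39 and 9.68 in AngIV. Every AngIV array exceeded every NC array, while DM replicates 1 and 2 sat among the AngIV values and DM replicates 3 and 4 among the NC values. The log2 change was 0.52 ± 0.13 (SE) in AngIV against NC, 1.43-fold, with a limma adjusted p of 0.0505, just outside the threshold. It was 0.32 ± 0.13 in DM against NC (SE; limma adjusted p = 0.379) and, in AngIV against DM, 0.20 (limma adjusted p = 0.67). Insr passed the threshold in AngIV against NC under 9 of 25 alternative settings, with adjusted p from 0.0157 to 0.224.

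Igf1r read 5.23, 4.89, 5.05 and 5.11 in NC, 5.83, 5.64, 5.48 and 5.17 in DM and 5.39, 5.48, 5.49 and 5.58 in AngIV. The AngIV arrays all exceeded the NC arrays, and of the DM arrays only replicate 4 fell within the NC range. Both the NC mean of 5.07 and the AngIV mean of 5.49 lay below the negative controls, so the log2 changes of 0.46 ± 0.13 in DM and 0.42 ± 0.13 in AngIV against NC (SE; limma adjusted p = 0.217 and 0.0984) are differences near background. Igf2r, the receptor that clears IGF-2 and sorts lysosomal enzymes, read 8.28 ± 0.01 in NC, 8.37 ± 0.15 in DM and 8.27 ± 0.06 in AngIV (SD, n = 4), and its changes did not pass the threshold.

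Of the IGF-binding proteins, which hold IGFs outside the cell, 0 of 5 passed the threshold in any comparison. Igfbp5 in DM against NC, and Igfbp5 and Igfbp7 in AngIV against NC, had an unadjusted p below 0.05. Igfbp5 read 7.25, 6.54, 6.83 and 6.92 in NC, 6.65, 6.58, 6.44 and 6.38 in DM and 6.58, 6.41, 6.55 and 6.49 in AngIV. NC replicates 1, 3 and 4 exceeded all diabetic arrays, while NC replicate 2 lay among them. The log2 change against NC was -0.38 ± 0.13 in DM and -0.38 ± 0.13 in AngIV (SE; limma adjusted p = 0.309 and 0.132), and the difference between AngIV and DM was -0.00.

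Igfbp7, a secreted protein of vessel walls, read 9.82, 9.60, 9.58 and 9.72 in NC, 9.60, 9.70, 9.56 and 9.41 in DM and 9.58, 9.43, 9.23 and 9.12 in AngIV. AngIV replicates 2, 3 and 4 lay below every NC array, and replicate 1 touched the NC range. The log2 change in AngIV against NC was -0.34 ± 0.11 (SE; limma adjusted p = 0.128). Igfbp3, Igfbp4 and Igfbp6 had log2 changes between -0.18 and 0.33 over the 3 pairwise comparisons, with Igfbp3 below the negative controls in all groups. Markers of other cells moved beside these genes on some arrays. NC replicate 1, highest for Igfbp5 and Igfbp7, also had the highest mean of the 7 measured fibroblast markers (7.78). Its mean of the 8 smooth muscle and pericyte markers (7.27) was the highest too. AngIV replicate 4, lowest for Igfbp7, had the lowest fibroblast mean (6.99). The smooth muscle and pericyte mean was 6.46 on that array and 6.64 on AngIV replicate 3, both inside the NC range of 5.95 to 7.27. The part of these markers in the Igfbp values was not tested.

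Among the docking proteins and brakes at the receptor, 0 of 5 passed limma's threshold, and 1, Grb14, had an unadjusted p under 0.05, in AngIV against NC. Irs1, a docking protein for PI3-kinase, read 4.62, 4.70, 4.76 and 4.82 in NC, 5.15, 4.66, 4.96 and 4.49 in DM and 4.98, 5.09, 4.81 and 4.75 in AngIV. The groups overlapped, and all 3 means lay below the negative controls. Irs2, its relative and a known FoxO target in liver, read 6.33, 6.84, 6.30 and 6.45 in NC, 6.60, 6.90, 6.53 and 6.62 in DM and 5.81, 6.09, 6.50 and 6.84 in AngIV. AngIV replicates 1 and 2 were lower than all other arrays, but replicates 3 and 4 were not, and the log2 change of -0.35 in AngIV against DM had a limma adjusted p of 0.60.

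Grb14, an adaptor that binds the active insulin receptor and inhibits its kinase, read 8.38, 8.70, 8.38 and 8.39 in NC, 7.46, 8.14, 8.25 and 8.54 in DM and 7.83, 7.97, 7.95 and 7.95 in AngIV. All AngIV arrays lay below all NC arrays, DM replicate 1 was lower still, and DM replicate 4 lay inside the NC range. The log2 change was -0.54 ± 0.17 in AngIV against NC (SE; limma adjusted p = 0.115) and -0.36 ± 0.17 in DM against NC (SE; limma adjusted p = 0.482). Grb10, a close relative of Grb14, and Ptpn1, the phosphatase that dephosphorylates the receptor, had log2 changes between -0.08 and 0.08 in the 3 pairwise comparisons.

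PI3-kinase pairs a catalytic subunit, such as those of Pik3ca and Pik3cb, with a regulatory subunit, of which Pik3r1 encodes p85 alpha and its shorter forms. Pik3r1 read 7.97, 7.60, 7.93 and 7.90 in NC, 8.53, 8.49, 7.98 and 7.87 in DM and 8.38, 8.88, 8.67 and 8.98 in AngIV. The AngIV arrays were all higher than the NC arrays. DM replicates 1 and 2 lay within the AngIV range, DM replicate 4 within the NC range and DM replicate 3 at its upper edge. Means were 7.85 ± 0.17, 8.22 ± 0.34 and 8.73 ± 0.26 (SD, n = 4).

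Pik3r1 rose in AngIV against NC by 0.87 ± 0.17 on the log2 scale (SE; 95% interval 0.52 to 1.23), 1.83-fold, with a limma adjusted p of 0.0159 and rank 89 by p among the 13653 genes. It differed by 0.37 in DM against NC (limma adjusted p = 0.452) and by 0.51 in AngIV against DM (limma adjusted p = 0.46). With both diabetic groups against NC it rose by 0.62 ± 0.14 (SE; limma adjusted p = 0.0497), a call kept in 10 of 24 alternatives. Leaving out NC replicate 1, 2, 3 or 4, DM replicate 1 or 2, or AngIV replicate 2, 3 or 4 ended that call (limma adjusted p 0.0785 to 0.142), and so did the replicate block (0.0896). No filter on dim genes (0.0712), array weights (0.0689), a further quantile normalization (0.0512) and the arrays with Myl7 under 5 (0.416) ended it too, and the lowest adjusted p over all alternatives was 0.0179. The AngIV against NC call was kept in 22 of 25 alternatives and was lost without NC replicate 2 (adjusted p = 0.0515), without AngIV replicate 4 (0.0558) and on the arrays with Myl7 under 5 (log2 change 0.97, adjusted p = 0.0533), over a range of 0.00432 to 0.0558. With the atrial marker mean as a covariate the change was 1.05 (limma adjusted p = 0.00803). Macrophage markers were also higher than in NC on most diabetic arrays, with a group mean of 6.04 in DM and 6.04 in AngIV. The mean of the 7 measured, of which 4 lay above background in all groups and Adgre1 and Fcgr1 in none, was 6.12, 6.31, 6.14 and 5.61 in AngIV and 6.60, 5.94, 6.06 and 5.55 in DM. Replicates 1, 2 and 3 of both groups thus exceeded the NC maximum of 5.85, and DM replicate 4 was lowest of all. AngIV replicate 4, with the highest Pik3r1 signal, lay inside the NC range of the markers. DM replicate 3 lay above that range with a Pik3r1 signal of 7.98, at the upper edge of NC. The part of these markers in the Pik3r1 values was not tested.

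Pik3cb read 5.83, 5.72, 5.74 and 5.76 in NC, 5.49, 5.61, 5.61 and 5.29 in DM and 5.70, 5.54, 5.65 and 5.73 in AngIV. Every DM array lay below every NC array, and the AngIV arrays overlapped both. The DM mean of 5.50 fell below the negative controls, so the log2 change of -0.26 ± 0.10 in DM against NC (SE; limma adjusted p = 0.338) is a difference near background. Pik3ca had group means of 7.74, 7.73 and 7.87, and Pik3r2, which encodes p85 beta, lay below the negative controls in all groups.

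**Figure D4:**
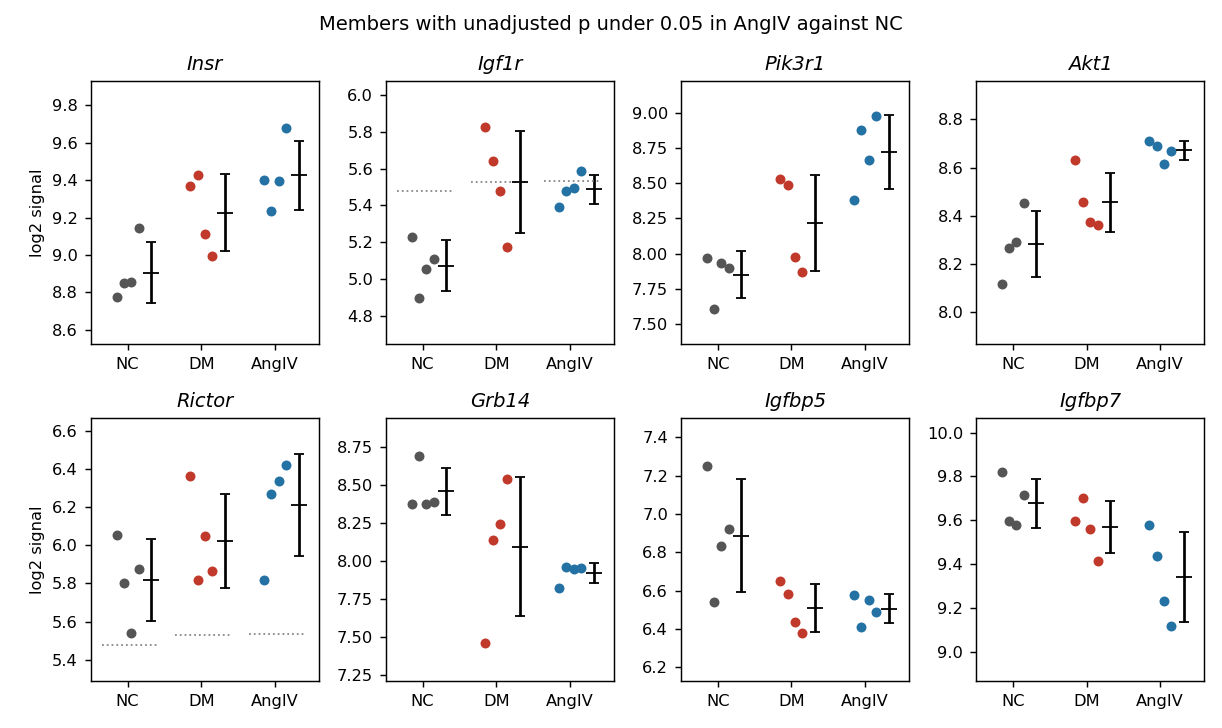
Log2 signal (vertical axis) of named genes on each array; points are arrays, bars the mean ± SD of 4 arrays and dotted lines, where within the axis, the background of that group (95th percentile of the negative controls). Pik3r1 has group means of 7.85, 8.22 and 8.73 in the order NC, DM, AngIV, and the Insr and Akt1 points of AngIV lie above those of NC.

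The series title names FoxO1, a transcription factor that AKT holds out of the nucleus, so the windows of 250 bases before the start of each RefSeq transcript were searched for its core motif GTAAACA on both strands (TGTTTAC on the other). Of the 37 genes 36 had a window, Insr being the exception, and 1 of their 49 windows (2.04%) held the motif, beside 1040 of 32851 windows of all genes (3.17%). The match was in an Akt1 window, 161 bases before the start, on the reverse strand. Shown are both windows of Pik3r1, the gene past the threshold, which differ in GC content (76.4% and 42.4%), and the Akt1 window with the motif. Sequences are from RefSeq on GRCm38.p6, 5′ to 3′ on the minus strand, at chr13:101768218-101768467, chr13:101692631-101692880 and chr12:112674885-112675134, with the motif in capitals:
Pik3r1 window 1: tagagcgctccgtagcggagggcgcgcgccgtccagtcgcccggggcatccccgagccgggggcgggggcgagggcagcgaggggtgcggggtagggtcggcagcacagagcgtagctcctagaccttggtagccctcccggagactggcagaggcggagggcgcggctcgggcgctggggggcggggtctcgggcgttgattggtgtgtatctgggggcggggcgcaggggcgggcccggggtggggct
Pik3r1 window 2: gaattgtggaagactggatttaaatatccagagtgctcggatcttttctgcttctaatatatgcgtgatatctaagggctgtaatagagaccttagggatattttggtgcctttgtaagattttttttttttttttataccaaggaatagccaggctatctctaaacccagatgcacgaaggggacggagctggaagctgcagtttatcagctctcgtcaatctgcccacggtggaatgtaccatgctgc
Akt1 window 1: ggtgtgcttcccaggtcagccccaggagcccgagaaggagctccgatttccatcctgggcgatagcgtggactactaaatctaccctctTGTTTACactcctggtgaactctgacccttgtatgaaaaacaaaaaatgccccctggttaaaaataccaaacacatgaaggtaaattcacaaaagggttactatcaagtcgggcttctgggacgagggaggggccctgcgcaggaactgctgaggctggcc
The array has 1 probe set for Pik3r1, so RNA from its starts cannot be told apart here. A match describes letters in these windows and says nothing about binding. Only exact matches to GTAAACA were counted, and other forms of FoxO site were not searched.

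Downstream of PI3-kinase, Akt1, the AKT isoform tied to growth, read 8.12, 8.27, 8.29 and 8.45 in NC, 8.63, 8.46, 8.38 and 8.36 in DM and 8.71, 8.69, 8.62 and 8.67 in AngIV. The AngIV arrays were tightly grouped above all NC arrays, DM replicates 3 and 4 lay within the NC range and DM replicate 1 within the AngIV range. The log2 change was 0.39 ± 0.10 in AngIV against NC, 1.31-fold (SE; limma adjusted p = 0.0519), and 0.21 in AngIV against DM (limma adjusted p = 0.554). It passed the threshold against NC under 6 of 25 alternatives.

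Akt2, the isoform that serves insulin-driven glucose uptake, read 6.55, 6.67, 6.59 and 6.72 in NC, 6.62, 6.65, 6.90 and 6.96 in DM and 6.73, 6.71, 6.72 and 6.56 in AngIV. DM replicates 3 and 4 were the highest arrays and the groups overlapped, with log2 changes of 0.15 in DM against NC and -0.10 in AngIV against DM (limma adjusted p = 0.633 and 0.78). Pdpk1, which encodes the AKT kinase PDK1, and Phlpp1, which encodes an AKT phosphatase, had log2 changes between -0.07 and 0.09 in the 3 pairwise comparisons.

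Of the AKT substrates, Tbc1d4, which restrains glucose transporter vesicles until AKT phosphorylates it, read 7.91, 8.17, 8.18 and 7.96 in NC, 8.21, 7.88, 8.14 and 7.99 in DM and 8.03, 8.14, 7.97 and 8.12 in AngIV. The groups overlapped fully and the means of 8.06, 8.06 and 8.07 hardly differed. Gsk3a and Gsk3b, the glycogen synthase kinases, had log2 changes of 0.10 and -0.13 in DM against NC (limma adjusted p = 0.728 and 0.678). Tbc1d1 lay below the negative controls in all groups.

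The mTOR group holds the brake proteins Tsc1 and Tsc2, the activator Rheb, the kinase Mtor and its partners Rptor in complex 1 and Rictor in complex 2. None of the 6 measured passed limma's threshold in any comparison, and 1, Rictor, had an unadjusted p under 0.05, against NC. Mtor read 6.24, 6.45, 6.61 and 6.79 in NC, 6.38, 6.49, 6.33 and 6.39 in DM and 6.64, 6.67, 6.63 and 6.56 in AngIV. The AngIV arrays all exceeded the DM arrays, and the wide NC range enclosed both groups. The log2 change in AngIV against DM was 0.23 (limma adjusted p = 0.569).

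Rictor read 6.05, 5.80, 5.54 and 5.88 in NC, 6.36, 5.82, 6.05 and 5.87 in DM and 5.82, 6.27, 6.33 and 6.42 in AngIV. AngIV replicates 2, 3 and 4 lay above the NC range and replicate 1 inside it, for a log2 change of 0.39 ± 0.16 against NC (SE; limma adjusted p = 0.191). Rheb read 8.23, 8.29, 8.41 and 8.40 in NC, 8.04, 8.23, 8.24 and 8.38 in DM and 8.24, 8.23, 8.20 and 8.39 in AngIV, with overlap of all groups. In AngIV against DM the log2 change was positive for 6 of 6 genes of the group, with a median of 0.19, beside 7227 of 13653 for all genes. In DM against NC, which shares the DM arrays, it was negative for 5 of 6, with a median of -0.10, beside 6887 of all genes. Both splits held after a further quantile normalization, and 4 of 6 were negative in DM against NC with arrays centred on their medians. The splits count Rptor, below the negative controls in all groups, and Tsc2, at -0.00 in DM against NC. The lowest limma adjusted p of the group was 0.569 in AngIV against DM and 0.68 in DM against NC.

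AMPK, the energy sensor that opposes mTOR complex 1, was represented by Prkaa1, Prkaa2 and Prkag2. Prkaa2, its main catalytic subunit in muscle, read 8.17, 8.60, 8.57 and 8.74 in NC, 8.41, 8.41, 8.49 and 8.15 in DM and 8.66, 8.35, 8.45 and 8.54 in AngIV, with overlap of all groups. Prkag2, a regulatory subunit that senses AMP, read 6.47, 6.50, 6.32 and 6.47 in NC, 6.72, 6.86, 6.96 and 6.48 in DM and 6.21, 6.61, 6.42 and 6.67 in AngIV. DM replicates 1, 2 and 3 exceeded every NC and AngIV array, and DM replicate 4 did not. The log2 change was 0.31 ± 0.12 in DM against NC and -0.28 ± 0.12 in AngIV against DM (SE; limma adjusted p = 0.375 and 0.554), comparisons that share the DM arrays. Prkaa1 had log2 changes between 0.00 and 0.02.

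A further 86 genes of the route were listed, of which 79 had a probe set and 74 were tested. In AngIV against NC limma called 3 of the 74 higher and 0 lower, while 14 (18.9%) had an unadjusted p below 0.05, beside 2.15% and 18.6% of all genes. It called 0 in DM against NC, with 8 (10.8%) at an unadjusted p under 0.05, beside 10.7% of all genes. In AngIV against DM it called 0, with 6 (8.11%) at that level, beside 8.78% of all genes. The unadjusted counts lie near the share of all genes, and 3 calls are no result about the route as a whole. All 3 called genes come from the mTOR part of the list, which holds 25 of the 74 tested genes. That list was chosen with earlier results of these data known.

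Eef2k, the kinase that slows translation elongation and is restrained by mTOR complex 1, read 6.11, 6.54, 6.27 and 6.19 in NC, 6.83, 6.81, 6.83 and 6.32 in DM and 7.13, 7.13, 7.06 and 7.16 in AngIV. The AngIV arrays lay above all others, DM replicates 1, 2 and 3 came next, and DM replicate 4 fell within the NC range. Eef2k rose by 0.84 ± 0.13 in AngIV against NC, 1.79-fold (SE; limma adjusted p = 0.00617), and remained past the threshold in 25 of 25 alternatives. With both diabetic groups against NC it rose by 0.63 (limma adjusted p = 0.0156), a call lost without NC replicate 1, 3 or 4 (0.0539, 0.0528 and 0.0551) and on the arrays with Myl7 under 5 (0.286).

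Eif4ebp1, the cap-dependent translation brake that mTOR complex 1 phosphorylates, read 7.32, 7.30, 7.25 and 7.27 in NC, 7.72, 8.24, 7.59 and 7.42 in DM and 7.75, 7.91, 8.14 and 8.49 in AngIV. The NC arrays lay close together below all 8 diabetic arrays. The rise in AngIV against NC was 0.79 ± 0.17, 1.73-fold (SE; limma adjusted p = 0.029), kept in 17 of 25 alternatives. It was lost without NC replicate 1, 2, 3 or 4 or AngIV replicate 3 or 4 (limma adjusted p 0.0606 to 0.0848), with the replicate block (0.0558) and on the arrays with Myl7 under 5 (0.114). Its DM against NC log2 change of 0.46 had a limma adjusted p of 0.344.

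Rragc, a Rag GTPase that brings mTOR complex 1 to the lysosome when amino acids are present, read 7.11, 7.02, 7.12 and 7.07 in NC, 7.34, 7.54, 7.15 and 7.31 in DM and 7.56, 7.63, 7.52 and 7.50 in AngIV. Diabetic and NC arrays did not overlap for 4 of the 74 tested genes, beside 345 of 13653 for all genes. These were Eif4ebp1, Ptpn11, Pik3r3 (lower on the diabetic arrays) and Rragc. All diabetic arrays of Rragc exceeded its NC arrays. It rose by 0.47 ± 0.10 in AngIV against NC, 1.39-fold (SE; limma adjusted p = 0.0208), kept in 20 of 25 alternatives and lost without NC replicate 2, without AngIV replicate 2, 3 or 4 (0.0611, 0.0652, 0.0555 and 0.0524) and on the arrays with Myl7 under 5 (0.0892). With both diabetic groups against NC it rose by 0.36 (limma adjusted p = 0.0455), a call kept in 9 of 24 alternatives. That call was lost without any 1 of the NC or AngIV arrays, without DM replicate 1 or 2 (0.0603 to 0.123) and with the replicate block (0.0791). It was also lost with no filter on dim genes (0.0782), with array weights (0.0689), after a further quantile normalization (0.0512) and on the arrays with Myl7 under 5 (0.455).

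**Figure D5:**
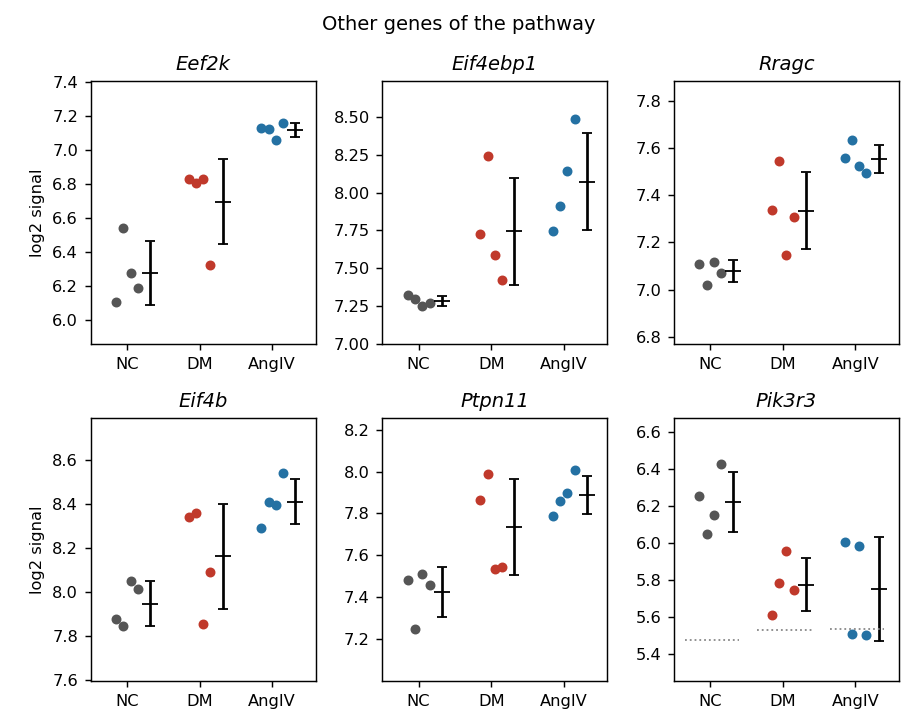
Log2 signal (vertical axis) of further genes of the route on each array; points are arrays, bars the mean ± SD of 4 arrays and dotted lines, where within the axis, the background of that group (95th percentile of the negative controls). Eef2k has means of 6.28, 6.70 and 7.12 and Eif4ebp1 of 7.28, 7.74 and 8.07 in NC, DM and AngIV.

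Genes that missed the threshold in AngIV against NC but had an unadjusted p under 0.05 there included Ptpn11, the phosphatase SHP2, with a log2 change of 0.46, and Eif4b, an initiation factor, with 0.46 (limma adjusted p = 0.0519 and 0.0531). Lower values were measured for Ppp2r5a, a regulatory subunit of the phosphatase PP2A, at -0.38, and for Pik3r3, the p55 gamma regulatory subunit of PI3-kinase, at -0.47 (limma adjusted p = 0.0662 and 0.0824). Acacb, the mitochondrial acetyl-CoA carboxylase that AMPK inhibits, had a change of 0.41 (limma adjusted p = 0.115). The others were Shc1 (0.35), Lamtor2 (0.31) and Rps6 (0.22) above 0 and Rraga (-0.32), Prkag3 (-0.31) and Igfbp2 (-0.24, near background) below it.

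The 8 genes in DM against NC were Eif4ebp1 (0.46), Eef2k (0.42), Ptpn11 (0.31), Acacb (0.29), Rragc (0.25) and Pik3r5 (0.25, near background) above 0 and Pik3r3 (-0.45) and Sos1 (-0.26) below it. In AngIV against DM they were Eef2k (0.42), Mlst8 (0.24, near background) and Rragc (0.22) above 0 and Socs1 (-0.50, near background), Sgk1 (-0.44) and Prkag3 (-0.31) below it. Sgk1 encodes a kinase that shares substrates with AKT, and Socs1 a brake on cytokine and insulin signals. None of these values passed limma's threshold. Of the 25 tested genes in the mTOR part of the list, 21 had a positive log2 change in AngIV against DM, with a median of 0.12. Beside these stood 7227 of 13653 for all genes. After a further quantile normalization 20 were positive, beside 6753 of all genes. In DM against NC, which shares the DM arrays, 16 of the 25 were negative, with a median of -0.03. Of all 13653 genes 6887 were negative there, and with arrays centred on their medians 15 of the 25 were. Mlst8, Deptor, Prr5, Prr5l, Tbc1d7, Rragb, Nprl3 and Depdc5 lay below the negative controls in all groups.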

How the data were processed

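The labels and the series design describe 4 mice in each of 3 groups, and groups were taken from the sample titles. The authors deposited log2 signals per probe set from RMA (background correction, quantile normalization and a summary over probes), per the submitters' processing notes; neither its version nor the chip description or build is given in the sources used here. This quantile normalization hides changes in total RNA, and RMA compresses differences near background.

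Of 29129 probe sets 6923 were controls. Platform annotation named 19572 of the rest, matched by Entrez ID to RefSeq genes on GRCm38, and the brightest probe set per gene was kept. The dimmest 30% of genes (mean under 3.40) were removed, and 13653 remained. Differences between group means over all 12 arrays were tested with limma 3.58.1 (R 4.3.3), with Benjamini-Hochberg adjustment over those genes and a call at an adjusted p under 0.05. The script was tested on simulated data. Folds and log2 changes are differences of the deposited log2 values. The number of arrays limits the precision: the median SE of a log2 change was 0.127.

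Values on every array are given for genes with an unadjusted p under 0.05 in any comparison, for the brightest of each role group and for Insr, Igf1r, Igf1, Irs1, Irs2, Pik3r1, Akt1, Akt2 and Mtor. Of the further genes of the route, those with an unadjusted p under 0.05 in a pairwise comparison are named. The genes, lists and tests were chosen with earlier results of these data known. No batch is named in the labels or the table. Alternatives changed the filter on dim genes, the variance prior, array weights, scaling, the groups fitted, a replicate block, atrial content and each array left out in turn.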

Additional observations from a re-analysis of the deposited data

Results flagged for a closer look

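The highest or lowest of the 4 arrays of a group stood apart from the other 3 (a gap over 0.829 of the group's range, Dixon's 95% limit) in 6 of 108 groups tested, where chance gives about 1 in 20 groups. Igfbp6 was 5.60 on AngIV replicate 4 and 6.08 to 6.13 on the others. Akt2 was 6.56 on the same array and 6.71 to 6.73 on the others. Grb14 was 8.70 on NC replicate 2, beside 8.38 to 8.39, and 7.83 on AngIV replicate 1, beside 7.95 to 7.97. On NC replicate 1, Pdpk1 was 6.62, beside 6.84 to 6.86, and Tbc1d1 was 4.64, beside 4.08 to 4.12, the latter below the negative controls. These values were left in all tests.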

How the results depend on the processing

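For the 26 pairs of gene and comparison with an unadjusted p under 0.05, no log2 change turned its direction under any of 25 alternatives (24 for both diabetic groups against NC). The pairs were picked by p from the same arrays, and the filter and the variance prior leave a log2 change as it was. A kept direction is therefore no separate support. Of the other 118 pairs, 0 passed limma's threshold under any alternative. In DM against NC and in AngIV against DM limma called 0 of 36 genes under all 25 alternatives.

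In AngIV against NC, where limma called 1 gene, it called 3 with the dimmest 50% of genes left out, 4 with only genes above the negative controls in at least 1 group, 3 with an intensity trend in the prior, 2 with a robust prior, 3 with arrays centred on their medians and 4 with only the 2 groups in the fit. On arrays with Myl7 under 5, which leaves 2 NC, 1 DM and 4 AngIV arrays, the comparison rests on 2 NC arrays. The lone DM array adds nothing to the spread in this comparison. Comparisons that use DM assume there that it varies like the others. With each array left out the count ran from 0 (without NC replicate 2 or AngIV replicate 4) to 4 (without DM replicate 1), with 3 without NC replicate 4 and 2 without DM replicate 4.

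With both diabetic groups against NC, where limma called 1 gene, it called 0 with no filter, with array weights, after quantile normalization, with the replicate block and on arrays with Myl7 under 5. It called 3 with the dimmest 50% left out, 5 above the negative controls, 4 with the trend and 2 with the atrial covariate; with each array left out it ran from 0 to 3 (without DM replicate 4). The cause of these shifts was not tested.

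Same-numbered arrays correlated at -0.12 to 0.21 in their deviations from the group means, beside -0.21 to 0.23 for differently numbered arrays. Of the 12 same-numbered pairs, 2 exceeded 0.1. The 95th percentile of the negative controls, from replicate 1 to 4, was 5.60, 5.50, 5.48 and 5.54 in DM. It was 5.59, 5.51, 5.48 and 5.56 in AngIV and 5.57, 5.55, 5.40 and 5.39 in NC. The labels do not say whether a number marks arrays handled together, and these values cannot settle it. Signals near background limit Igf1r, Igfbp3, Irs1, Pik3cb, Pik3r2, Tbc1d1 and Rptor.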
